A study of Mus musculus with 15 samples.

Results

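MH-S cells, a mouse alveolar macrophage line immortalized with SV40, were compared after polarization toward M1 and toward M2. The members of this comparison were all genes that passed a filter on low counts, 16654 of the 78317 gene identifiers in the count table, and the question was which of them separated the states and on which side of the non-stimulated cells (M0) each lay. M1 cells received 1 µg/mL lipopolysaccharide (LPS) and 20 ng/mL interferon-γ (IFN-γ) for 24 h, M2 cells 20 ng/mL interleukin-4 (IL-4) for 24 h, and M0 cells medium alone. There were 3 libraries per group, prepared from wells of the same cell passage, so the spread between replicates is that between wells of 1 immortalized line and not between animals. RNA was read by bulk Smart-seq2 sequencing without molecular identifiers. The series also holds 6 libraries of cells exposed to microrods. They entered the filter on low counts, the scaling and the estimate of the spread, but none of the comparisons.

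LPS is a component of the outer membrane of Gram-negative bacteria. It binds CD14 and then the TLR4 receptor, whose adaptors activate NF-κB and the interferon regulatory factors. IFN-γ signals through its receptor and the kinases JAK1 and JAK2, and together the stimuli give the classical M1 state with its cytokines, nitric oxide synthase and guanylate-binding proteins. IL-4 signals through its receptor to STAT6, and the resulting M2 state is known for arginase, lectins such as the mannose receptor, and chemokines of type 2 immunity. In the lung, alveolar macrophages normally clear surfactant and inhaled particles.

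The libraries held 8459643 to 39201265 counts in M0, 10117846 to 14879931 in M1 and 8594947 to 68750050 in M2. Levels below are in CPM, counts scaled to a common library size, and they compare a gene between libraries, never different genes. In a principal component analysis of the 9 libraries, the first component (53.1% of the variance) placed M1 at 44.5 to 49.3 and every other library at -15.2 or below. M0 replicate 3 (-38.6) and M2 replicate 2 (-38.7) stood apart on the second component (24.4%). Without M2 replicate 2 the number of genes called between M1 and M2 rose to 4270, and without both libraries to 5029. Summed macrophage markers lay at 6255 to 6939 CPM in M1, 4960 to 6479 in M0 and 3651 to 5241 in M2, with all 10 detected in each group. Single members went both ways. Lyz2 was at 1522 to 1789 CPM in M1 and 322 to 438 in M2, and Csf1r at 61.0 to 110 and 137 to 195. Epithelial markers were all at 0 in M1, and epithelial, fibroblast, lymphocyte and mast cell lists each summed to at most 0.516 CPM in any library of the 3 groups, and endothelial markers to at most 2.46 CPM. Neutrophil markers summed to 0.972 to 1.78 CPM in M1 against 0.114 to 0.546 in M2. S100a8 alone held 0.486 to 1.30 CPM in M1, whereas S100a9, Ly6g and Ngp had no count in the 9 libraries. Mitochondrial transcripts took 0.888 to 1.04% of M1 counts against 1.03 to 2.13% of M2 counts. The part of these differences in the results was not tested. Several genes that define alveolar macrophages in vivo were at or near 0 in these cells. Ear1 and Ear2 had no count in the 9 libraries, Car4 had 3 in all, and Siglecf had 4 in M0, 1 in M1 and 23 in M2. Scaled for depth, Siglecf reached at most 0.195 CPM in M0, 0.0684 in M1 and 0.478 in M2. In bulk RNA, a lower value from fewer responding cells and one from less RNA per cell cannot be told apart.

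Between M1 and M2, 2679 genes passed an adjusted p of 0.05 with a log2 fold change beyond 0.5 (edgeR quasi-likelihood test), 16.1% of the genes tested. Of these, 1768 were higher in M1 (10.6%) and 911 in M2 (5.47%). Without the filter on low counts the split was 2096 against 2301, without M2 replicate 2 it was 2192 against 2078, and without M2 replicate 2 and M0 replicate 3 together it was 2259 against 2770. The majority for M1 thus narrowed in the second of these settings and turned in the other two. In no setting tried did a shared gene change direction. The libraries of the states did not overlap for 1705 of the 1768 genes and 865 of the 911. These genes were picked for a difference between the same libraries, so this separation gives them no further support. The median log2 difference was 1.57 among genes higher in M1 and -1.21 among those higher in M2, and -0.04 over all genes tested. Because the sets were picked by direction and size, their medians and their shares of counts in M1 and M2 had to differ this way. Differences beyond 5 on the log2 scale were reached by 76 genes higher in M1 and 16 higher in M2. The genes higher in M1 took 11.3 to 12.4% of all counts in M1, 4.74 to 5.65% in M0 and 3.48 to 4.11% in M2. The genes higher in M2 took 7.04 to 7.57% of counts in M2, 5.07 to 5.79% in M0 and 3.46 to 3.63% in M1.

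Each gene was then placed by its own comparison with M0. M1 against M0 called 9.7% of tested genes higher and 4.35% lower in M1, and M2 against M0 called 2% higher and 2.13% lower in M2. Both comparisons use the same 3 M0 libraries. Of the 1768 genes higher in M1, 1107 (62.6%) differed from M0 in M1 only, which is genes called higher in M1 than in M0 and not called between M2 and M0. A gene not called in a state may still have moved there. M2 minus M0 was 1.33 on the log2 scale for Ccl22 and -1.51 for Rsad2, and both are in this class. A further 137 (7.75%) differed in M2 only, meaning that M2 lowered them, 47 rose in M1 and fell in M2, 20 moved to the same side in both, and 457 (25.8%) passed against M0 in neither state. Of the 911 genes higher in M2, 310 (34.0%) had fallen in M1 only, 176 (19.3%) had risen in M2 only, 38 had risen in M2 and fallen in M1, 16 moved to the same side, and 371 (40.7%) passed in neither. By fitted values alone, M0 lay between the states for 1099 of the genes higher in M1 and 666 of those higher in M2. It lay below both for 586 and 95, and above both for 83 and 150. The M1 state was farther from M0 than the M2 state for 78.3% of genes higher in M1 and 58.0% of genes higher in M2. These class sizes moved with the libraries used. Genes passing in neither state numbered 828 in all, 1782 without M2 replicate 2 and 2597 without M2 replicate 2 and M0 replicate 3 together. In the same settings M2-only genes numbered 313, 577 and 350, M1-only genes 1417, 1734 and 1955, and genes with M0 between the states by fitted values 1765, 3267 and 3875. Opposite moves numbered 85 in all, 34 when only the 9 libraries of M0, M1 and M2 were in the model, and 41 without M0 replicate 1.

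**Figure D1:**
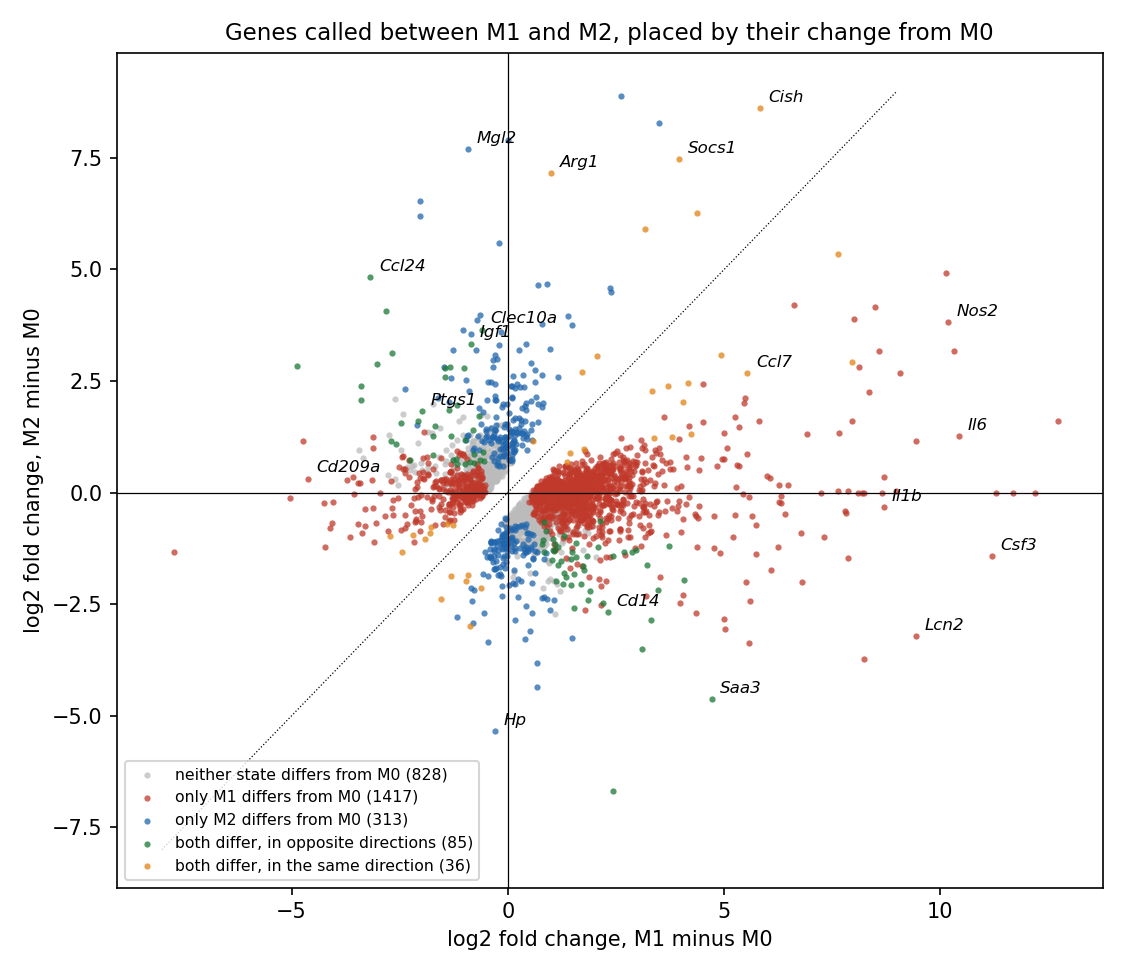
Each point is 1 of the 2679 genes called between M1 and M2, placed by its log2 fold change from M0 in M1 (horizontal) and in M2 (vertical), with colour giving the class. Genes higher in M1 lie below the dotted diagonal of equal change and genes higher in M2 above it, and the 1417 genes in which only M1 differed from M0 spread along the horizontal axis.

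The genes called upward from M0 in M1 alone held the cytokines. Il1b, which encodes interleukin-1β, was at 359, 425 and 449.7 CPM in M1, at 0.887, 1.32 and 0.615 in M2, and at 0.817, 1.11 and 1.27 in M0. M2 and M0 overlapped and M1 stood far above both, with a log2 difference between M1 and M2 of 9.02 ± 0.53 (SE, n = 3 per group, adjusted p = 5.32e-08). Il6, the acute-phase cytokine interleukin-6, was at 53.6, 45.5 and 55.0 CPM in M1, while 4 of the 6 libraries of M2 and M0 had no count and the others were at 0.0527 and 0.114 CPM. Its log2 difference was 9.17 ± 0.53 (adjusted p = 2.14e-10). Nos2, the inducible nitric oxide synthase, reached only 4.13, 6.02 and 8.46 CPM in M1, was at 0.341, 0 and 0.0143 in M2 and had no count in M0 (6.37 ± 0.75, adjusted p = 1.83e-05).

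Csf3, the granulocyte colony-stimulating factor, was at 174, 265 and 266 CPM in M1. All 3 M2 libraries together held 3 of its counts, a ratio of 7246 with a 95% counting interval of 2478 to 35142. Il1a, the gene of interleukin-1α, was at 32.5, 37.5 and 36.8 CPM in M1 with 1 count in M2 and none in M0, a ratio to M2 of 3290 (589 to 130033). Lcn2, which encodes the iron-scavenging protein lipocalin-2, was at 83.7, 107 and 121 CPM in M1 with 1 count in M2 (ratio 9524, 1708 to 376261). These intervals cover counting error only. In all 3 genes the lowest M1 library lay above every library of M0 and M2.

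Acod1 encodes the enzyme that makes itaconate. It was at 129, 167 and 179 CPM in M1 against 2.18, 1.45 and 1.69 in M2 and 2.32, 4.16 and 2.55 in M0, a log2 difference between the states of 6.47 ± 0.30 (adjusted p = 3.94e-09). Ccl5, a chemokine for T cells and monocytes, was at 813, 982 and 1048 CPM in M1, and its M2 values of 15.6, 30.0 and 19.6 overlapped those of M0 (21.99, 27.1 and 16.6). Lix1 was at 70.2, 58.2 and 58.5 CPM in M1 and at 0.132 to 0.409 in the other 6 libraries (7.61 ± 0.30, adjusted p = 4.12e-10). For Ccl5 and Lix1 the fitted M2 level was within 0.04 on the log2 scale of M0, so the whole distance between the states was the rise in M1.

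The reverse pattern, a gene called lower in M1 than in M0 and not called between M2 and M0, covered 310 genes. Cd209a, a C-type lectin of the DC-SIGN family, was at 1.03, 0.889 and 0.389 CPM in M1 against 17.2, 44.1 and 13.3 in M2 and 21.7, 16.3 and 20.2 in M0. Although M2 was higher than M1 by 4.93 ± 0.48 on the log2 scale (adjusted p = 8.06e-06), M2 and M0 overlapped and differed by 0.31 ± 0.34 (adjusted p = 0.717). Rgs2, a regulator of G protein signalling, was at 8.17, 5.47 and 5.64 CPM in M1, at 54.0, 179 and 44.6 in M2 and at 121, 82.9 and 115 in M0. Id2, an inhibitor of helix-loop-helix transcription factors, was at 2.67, 2.32 and 2.72 CPM in M1, 42.3, 31.2 and 43.2 in M2 and 23.7, 38.3 and 30.5 in M0. In both genes every M1 library lay below every library of the other groups. M2 replicate 2, which stood apart on the second component, was the highest M2 library for Cd209a and Rgs2.

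Lectins and an antigen-loading factor led the 176 genes that were called higher than M0 in M2 only. Mgl2, a galactose-binding C-type lectin, was at 584, 451 and 433 CPM in M2, at 1.63, 1.03 and 1.07 in M1 and at 2.37, 3.12 and 1.27 in M0. Its difference between the states was -8.62 ± 0.37 (M1 minus M2, log2, adjusted p = 2.25e-09), and M1 and M0 overlapped. H2-DMa, a subunit of the complex that loads peptides onto MHC class II, was at 39.8, 35.4 and 27.6 CPM in M2 against 1.81, 1.09 and 2.04 in M1 and 2.79, 2.99 and 3.01 in M0. The mannose receptor gene Mrc1 was at 30.0, 28.0 and 24.7 CPM in M2, 1.29, 0.752 and 1.46 in M1 and 2.19, 1.17 and 2.20 in M0. For these genes M2 stood apart from both other groups.

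In M2 alone, 137 genes were called lower than M0, and these counted as higher in M1. Hp, which encodes the hemoglobin-binding protein haptoglobin, was at 0.751, 1.05 and 0.587 CPM in M2, at 19.8, 22.2 and 26.8 in M1 and at 25.7, 29.3 and 30.1 in M0. The states differed by 5.04 ± 0.24 on the log2 scale (adjusted p = 4.92e-09), while M1 and M0 differed by -0.30 ± 0.17 (adjusted p = 0.273). Ptafr, the receptor of platelet-activating factor, was at 1.64, 2.76 and 1.29 CPM in M2, 53.9, 29.9 and 28.5 in M1 and 27.5, 16.9 and 25.6 in M0. Gm11635 was at 0.272 to 0.526 CPM in M2, 4.73 to 9.91 in M1 and 0.390 to 6.60 in M0, where it varied most. The gene of the superoxide-producing NADPH oxidase subunit, Cybb, followed the same pattern, at 127, 163 and 109 CPM in M2 against 870.3, 486 and 478 in M1 and 691, 366 and 576 in M0.

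In 47 genes M1 raised and M2 lowered the level, so that M0 lay in the middle by both tests. Saa3, an acute-phase serum amyloid A gene, was at 599.8, 827 and 779 CPM in M1, 21.8, 35.8 and 26.9 in M0 and 0.887, 1.32 and 1.20 in M2. From M0 it rose by 4.71 ± 0.26 in M1 and fell by 4.62 ± 0.29 in M2 on the log2 scale, and the states differed by 9.33 ± 0.33 (adjusted p = 3.99e-10). Slpi, a secreted inhibitor of leukocyte proteases, was at 93.7, 160.2 and 157 CPM in M1, 10.2, 21.1 and 16.9 in M0 and 1.16, 1.45 and 1.52 in M2. Cd14, the LPS co-receptor, was at 1509, 1414 and 1284 CPM in M1, 244, 304 and 294 in M0 and 42.9, 45.0 and 43.7 in M2 (5.00 ± 0.16, adjusted p = 1.43e-10). In all 3 genes the groups were fully separated in the order M1, M0, M2.

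The order was inverted in 38 genes. Ccl24, eotaxin-2, was at 20.3, 27.2 and 20.5 CPM in M2 and 0.659, 0.846 and 1.04 in M0, and M1 held 1 count in each library, 3 in all, a ratio of M2 to M1 of 256 (95% counting interval 87.5 to 1243). Clec10a, a lectin and M2 marker, was at 214, 189 and 185 CPM in M2, 14.1, 16.7 and 16.1 in M0 and 11.5, 9.16 and 10.5 in M1. Its fall from M0 to M1 was small, -0.59 ± 0.15 on the log2 scale (adjusted p = 0.0153), beside a rise of 3.65 ± 0.15 in M2. Igf1, insulin-like growth factor 1, was at 418, 600.3 and 407 CPM in M2, 46.9, 44.4 and 49.6 in M0 and 25.7, 24.5 and 27.6 in M1. Ptgs1, the constitutive cyclooxygenase, was at 236, 107 and 175 CPM in M2, 35.6, 64.7 and 46.6 in M0 and 7.65, 14.6 and 14.9 in M1. Lifr, the leukemia inhibitory factor receptor, was at 12.6, 16.8 and 8.99 CPM in M2 and 0.650 to 2.78 in M0, with 2 counts in M1 (ratio of M2 to M1 187, 51.5 to 1543). None of these genes had overlapping groups.

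The remaining class moved to the same side of M0 in both states but by unequal amounts. It included Arg1, the arginase that marks M2. Arg1 was at 1724, 1545 and 1382 CPM in M2, 23.5, 20.6 and 20.8 in M1 and 9.80, 8.46 and 14.7 in M0. The M1 libraries lay above all M0 libraries, by 1.00 ± 0.23 on the log2 scale (adjusted p = 0.0113), and the M2 libraries above M1 by 6.16 ± 0.27 (adjusted p = 2.91e-09). Cish and Socs1 encode feedback inhibitors of JAK-STAT signalling. Cish was at 48.7, 37.5 and 31.9 CPM in M2, 3.87, 4.79 and 8.55 in M1 and 0 to 0.132 in M0. Socs1 was at 75.3, 12.5 and 139 CPM in M2, 1.81, 7.66 and 10.9 in M1 and 0.369, 0.520 and 0.463 in M0, so the lowest M2 library came close to the highest M1 library. Its call between M1 and M2 was lost when only those 6 libraries were in the model.

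Upp1, uridine phosphorylase, was the mirror of Arg1. It was at 84.7, 92.4 and 96.4 CPM in M1, 2.80, 3.82 and 2.29 in M2 and 0.316, 0.455 and 0.347 in M0. The monocyte chemokine gene Ccl7 was at 521, 317 and 274 CPM in M1, 30.4, 94.8 and 30.4 in M2 and 7.30, 6.504 and 10.5 in M0. Gpr18, a G protein-coupled receptor, was at 21.2, 17.4 and 16.1 CPM in M1, 2.05, 4.21 and 1.85 in M2 and 0.948, 0.781 and 1.27 in M0, with M2 only just past the threshold against M0 (adjusted p = 0.0481). All 3 genes ran in the order M1, M2, M0 without overlap, and M2 replicate 2 was the highest M2 library in each.

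The 828 genes that passed in neither comparison with M0 were still separated between the states. Psmb10, an immunoproteasome subunit, was at 121, 134 and 131 CPM in M1, 134, 184 and 158 in M0 and 214, 226 and 180.3 in M2, with M0 reaching into the range of M2 (-0.68 ± 0.16, adjusted p = 0.00926). Adm, the gene of the vasodilator adrenomedullin, was at 7.39, 8.48 and 10.3 CPM in M1, 10.2, 18.7 and 9.61 in M0 and 30.2, 16.7 and 20.3 in M2. Their M0 values overlapped those of 1 or both states, and a p past the threshold in no comparison with M0 does not place M0 at the level of either state.

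**Figure D2:**
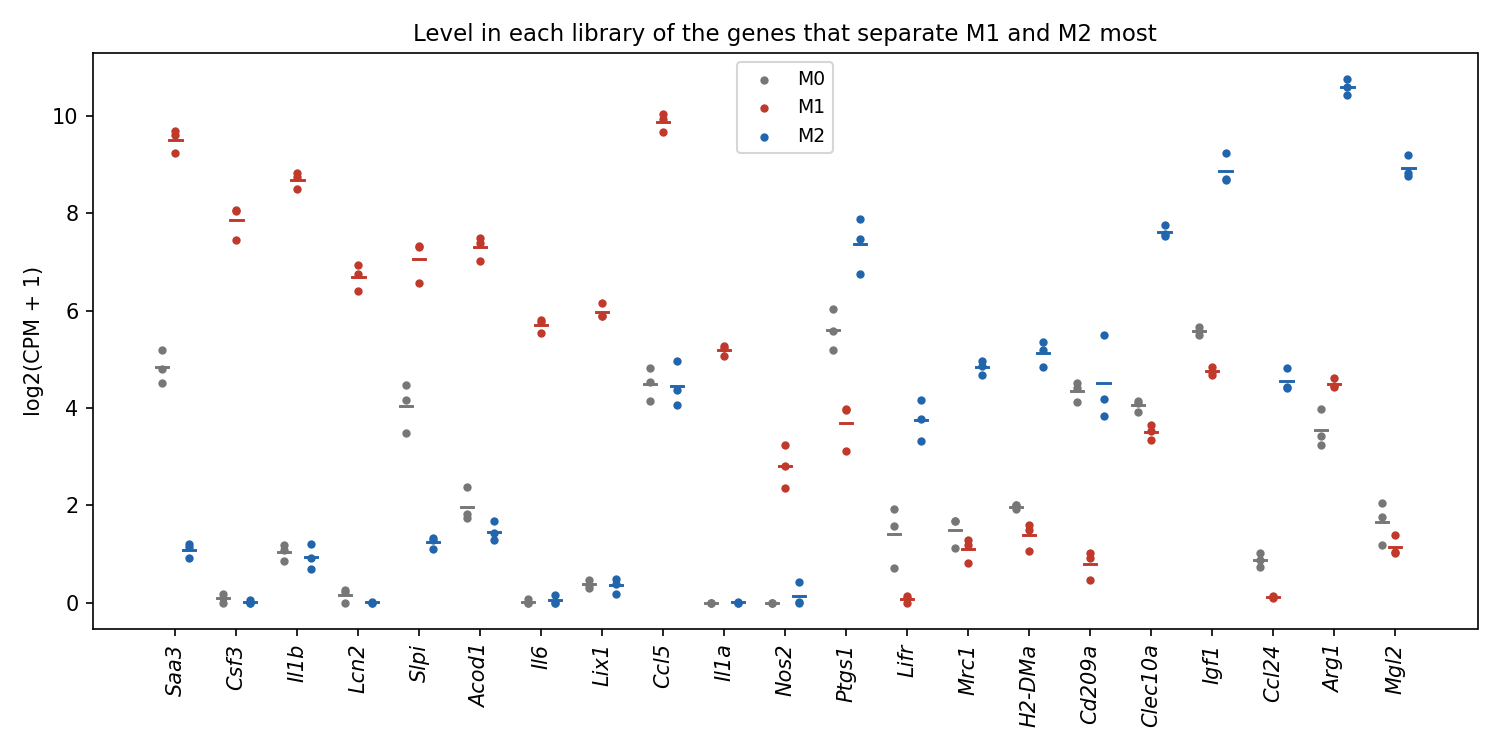
Points are single libraries of M0 (grey), M1 (red) and M2 (blue) on a log2(CPM + 1) scale and bars are the means of the 3 values, for 21 genes ordered from higher in M1 to higher in M2. Saa3, Slpi, Ptgs1, Lifr, Igf1, Ccl24 and Clec10a have M0 between the states, whereas for Il1b, Ccl5 and Cd209a the M0 points overlap those of M2.

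The called genes were then read by function in 22 lists chosen by hand, which say nothing of the called genes outside them. Each list's count stands against 10.6% of all tested genes higher in M1 and 5.47% higher in M2. Of 18 cytokines and mediators of inflammation 14 were tested, and 12 of these (85.7%) were higher in M1 and none in M2. The list median was 6.57 on the log2 scale, or 3.70 with the 5 genes at the count floor of 3 per library set to their bound. Tnf, the gene of tumor necrosis factor, was at 113 ± 30.1 CPM in M1, 11.2 ± 3.91 in M2 and 26.7 ± 8.41 in M0 (SD, n = 3), and was called up in M1 and down in M2. The list also holds Il10 and Il1rn, which encode the anti-inflammatory cytokine interleukin-10 and the interleukin-1 receptor antagonist. Both are among the 12 genes higher in M1, by 5.63 and 3.45. Il18, at 18.6 to 24.7 CPM in M1 and 8.97 to 20.3 in M2, and Tnfsf10 did not pass, although Il18 did without M2 replicate 2. Il12b had 13 counts in M1 and none elsewhere, and Ifnb1 and Il12a had at most 1 count in all.

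Chemokines, of which 14 of 21 were tested, were higher in M1 in 12 cases and in M2 in 1. The macrophage inflammatory protein gene Ccl3 was at 916, 739 and 780.1 CPM in M1 against 37.6, 58.0 and 34.3 in M2 and 97.3 to 114.4 in M0, and so moved in opposite directions from M0. Ccl2, Ccl4 and Cxcl10 were higher in M1 by 3.19, 3.53 and 4.21 on the log2 scale. Ccl24 was the member higher in M2. Ccl22 and Ccl17, ligands of CCR4 that are usually listed with M2, were at 30.0, 47.0 and 45.4 CPM and at 5.93, 6.15 and 5.83 CPM in M1, while no M2 library exceeded 0.615 and 0.200 CPM. In M0, Ccl22 was at 0.132 to 0.325 CPM and Ccl17 had no count. By fitted values M2 lay above M0 in both genes, by 1.33 and 4.93 on the log2 scale, but neither was called (adjusted p = 0.159 and 0.116). Cxcl9, a chemokine induced by IFN-γ, had no count in M1 and 1 in M2, and Cxcl1 had 1 count in M1 only.

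Genes that IFN-γ is known to induce were divided. Of 17 interferon-inducible GTPases, which act against intracellular pathogens, 8 were tested, 4 were higher in M1 and none in M2, with a median of 0.62. Gbp2 was at 3.01, 2.87 and 3.79 CPM in M1 against 0.0682 to 0.263 in M2, Gbp7 at 6.62, 6.29 and 4.76 against 0.409 to 0.658, and Gbp3 at 2.04 to 2.32 against 0.205 to 0.921. Irgm1 passed as well, whereas Igtp was at 12.0, 10.9 and 10.2 CPM in M1, 8.05, 9.34 and 7.66 in M2 and 7.85 to 11.1 in M0 (adjusted p = 0.152). Irgm2, Ifi47 and Gvin1 lay within 0.05 of equality on the log2 scale. Among those not tested, Gbp5 had 8 counts in M1, Gbp4 3, Gbp6 2, Gbp2b 1 and Iigp1 1 over the 3 libraries. Gbp8 and Gbp9 had 4 and 15 counts in M1 against 6 and 9 in M2, where replicate 3 was far deeper. Scaled for depth, Gbp8 was at 0 to 0.194 CPM in M1 and 0 to 0.132 in M2. Gbp9 was at 0.0972 to 0.602 CPM in M1 and 0.0682 to 0.132 in M2. Tgtp1 and Tgtp2 went the other way, with 1 count each in M1, 32 and 27 in M2 and 11 and 13 in M0, and these 2 genes are near-identical copies whose counts may be split between them.

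The same lack of counts held for other genes of this pathway, singled out after their values were seen. A single count equals 0.0684 to 0.0972 CPM in the M1 libraries, so levels below that could not be read. Ciita, the master regulator of MHC class II transcription, had 3 counts in M1, 28 in M2 and none in M0. Scaled for depth, Ciita was at 0 to 0.258 CPM in M1 and 0.132 to 0.546 in M2. Ido1 had none in M1 and 2 in M2. Irf1, an IFN-γ response factor, was at 4.22 ± 0.053 CPM in M1, 8.05 ± 1.44 in M2 and 7.25 ± 1.04 in M0 (SD, n = 3), lower in M1 than in M2 by 0.90 on the log2 scale (adjusted p = 0.0106) and also called lower in M1 than in M0. Ifngr1, the ligand-binding chain of the IFN-γ receptor, was at 54.6, 54.2 and 58.3 CPM in M1, 132, 101 and 119 in M2 and 99.5, 122 and 119 in M0, so that M1 lay below both other groups (-1.07 ± 0.19 against M2, adjusted p = 0.00114). Ifngr2 was at 162 CPM in M1 and 135 in M2 on average and was not called. M1 cells received LPS and IFN-γ together, so the part of either stimulus in the M1 values cannot be told apart, and whether IFN-γ was active in these wells was not tested.

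Interferon-stimulated antiviral genes, which limit the replication of viruses, lay mostly on the M1 side. Of 30 members 26 were tested, 19 (73.1%) were higher in M1 and none in M2, with a median of 1.68. Isg15, a ubiquitin-like modifier, was at 7.57, 8.75 and 12.3 CPM in M1 against 0.887, 0.526 and 0.773 in M2 and 0.585 to 1.74 in M0. Rsad2, which encodes viperin, was at 3.27, 2.67 and 3.01 CPM in M1 against 0 to 0.273 in M2, and Rtp4 at 19.3, 15.2 and 18.8 against 1.35 to 2.24. Usp18, the protease that removes Isg15, rose from 3.02 CPM in M0 to 17.9 in M1 and 22.7 in M2, and the states did not differ past the threshold. Mx1 had 1 count in M1 and Mx2 had 1.

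**Figure D3:**
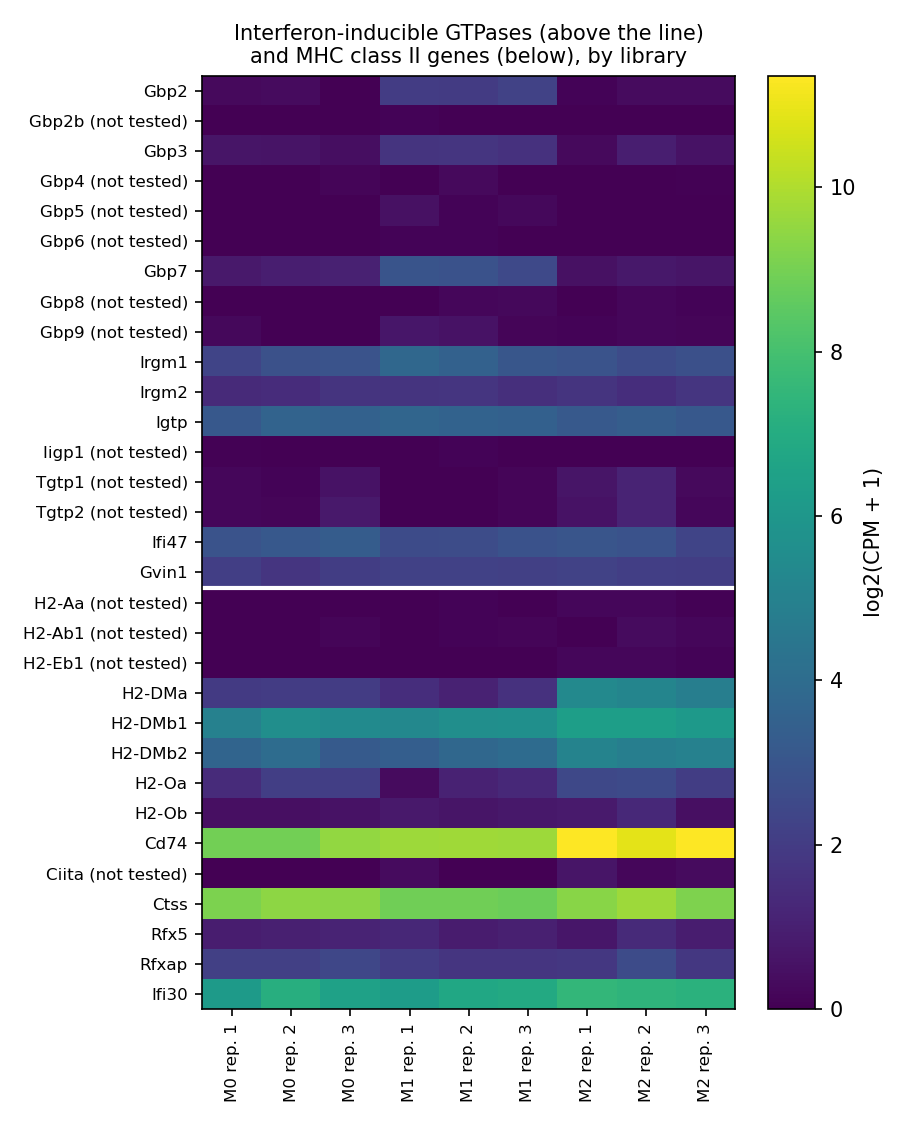
The colour gives log2(CPM + 1) in each of the 9 libraries for interferon-inducible GTPases (above the white line) and MHC class II genes (below it), including members marked as not tested. Gbp2, Gbp3 and Gbp7 are brighter in the M1 columns, H2-DMa and Cd74 in the M2 columns, and the 13 rows of untested genes are dark.

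MHC class II genes were higher in M2 or not called. Of 14 members 10 were tested, none was higher in M1 and 7 were higher in M2 (70.0%, against 5.47% of all genes), with a median of -0.75. Against M0, 4 of the 10 were called higher in M2, beside 2% of all genes tested, and none was called in M1. Cd74, the invariant chain, was at 2620, 1910 and 2578 CPM in M2, 817, 852 and 826 in M1 and 495, 496 and 727 in M0, and M2 but not M1 passed against M0. Beside H2-DMa, the members H2-DMb1, H2-DMb2 and H2-Oa were higher in M2, by 0.78, 1.32 and 2.10, as were the lysosomal protease Ctss and the thiol reductase Ifi30. The genes of the presenting molecules themselves were barely read, with 7, 13 and 9 counts in M2 for H2-Aa, H2-Ab1 and H2-Eb1 and 1, 2 and 0 in M1. Scaled for depth, none of them exceeded 0.263 CPM in M2 or 0.0972 in M1. For MHC class I presentation, all 18 members were tested, 1 was higher in M1 and 2 in M2, with a median of -0.03. B2m, H2-K1 and Tap1 lay within 0.30 of equality. Psmb10 was among those higher in M2. The calls of Psmb9 and of Nlrc5, the class I transactivator, were lost in 8 and 6 other settings.

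Of 14 tested costimulatory and checkpoint molecules, 5 (35.7%) were higher in M1, or 3 without M2 replicate 3, and 3 (21.4%) in M2, against 10.6% and 5.47% of all genes. Lgals9, which encodes galectin-9, was at 36.1, 55.0 and 64.7 CPM in M1 against 10.1, 10.4 and 7.06 in M2. Its receptor gene Havcr2 was higher in M2, at 16.04, 12.8 and 13.2 CPM against 5.42, 3.76 and 5.05. Cd80 was at 5.47 to 6.51 CPM in M1 and 1.53 to 2.37 in M2, a difference made mostly by the fall in M2 from 3.90 to 5.10 in M0. Cd83 and Cd40 were raised from M0 in both states and were not called between them.

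Of 28 genes commonly ascribed to IL-4, 20 were tested, 12 were higher in M2 and 6 in M1, with a median of -2.45. Against M0, 9 of the 20 were called higher in M2 and 0 lower, beside 2% and 2.13% of all genes tested. In M1, 7 were called higher than M0 and 4 lower, beside 9.7% and 4.35%. Beside the lectins, Arg1 and Ccl24, the members higher in M2 included the transcription factor Irf4 at 8.46, 6.84 and 5.41 CPM against 0.0860 to 0.479 in M1. Pdcd1lg2, which encodes PD-L2, was at 0.758 to 1.02 CPM in M2 and 0 to 0.273 in M1, and its call was lost in 4 other settings. The 6 members higher in M1 were Ccl17, Ccl22, Socs2, Myc, Tgm2 and Fn1. Myc, a growth-promoting factor, was at 17.6, 22.9 and 27.9 CPM in M1 and 6.82, 4.34 and 4.87 in M2, and Fn1, which encodes fibronectin, at 13.6, 14.2 and 16.1 and 1.64 to 4.08. Retnla had 15 counts and Chil3 9 in M2, with none in M1 or M0, too few to be tested.

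Among receptors, kinases and STATs, 28 of 29 were tested, 6 were higher in M1 and 1, Ifngr1, in M2. Most members, among them Tlr4, Myd88, Jak1, Stat6 and Il2rg, were not called between the states. Irak3, an inhibitory kinase of TLR signalling, was at 83.1, 80.5 and 72.7 CPM in M1 and 3.82 to 9.48 in M2. Tyk2 rested on M1 replicate 2, at 54.0 CPM beside 14.4 and 17.1, and its call was lost without that library. Of 24 feedback genes of the SOCS family and NF-κB, 9 were higher in M1 and 3 in M2. Socs3 was at 48.2, 75.3 and 76.5 CPM in M1 and 4.71, 1.32 and 3.82 in M2, the reverse of Socs1 and Cish. Nfkbia, which encodes IκBα, was at 1035, 1244 and 1256 CPM in M1, 183, 169 and 166 in M2 and 209 to 335 in M0, and Nfkbiz at 40.8, 40.7 and 46.6, 1.32 to 1.56 and 2.73 to 5.69. Both moved in opposite directions from M0.

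Transcription factors of polarization gave 6 of 26 tested members higher in M1 and 9 in M2. Batf, an AP-1 family factor, was at 11.2, 14.7 and 13.8 CPM in M1 and had no count in the 6 libraries of M2 and M0. Its relative Batf3 was higher in M2, at 38.9, 56.2 and 38.2 CPM against 9.97, 8.48 and 6.90 in M1. Klf4 was at 17.5, 16.5 and 17.6 CPM in M2, 3.61, 2.94 and 2.43 in M1 and 8.91 to 11.9 in M0, so its distance was mainly the fall in M1. Egr1 was at 31.9, 36.6 and 37.1 CPM in M1, 12.0, 8.95 and 12.3 in M2 and 23.5 to 30.9 in M0, so its distance was mainly the fall in M2. Hif1a, Cebpd and Irf9 were higher in M1, and Irf7 rose in both states and was not called between them.

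**Figure D4:**
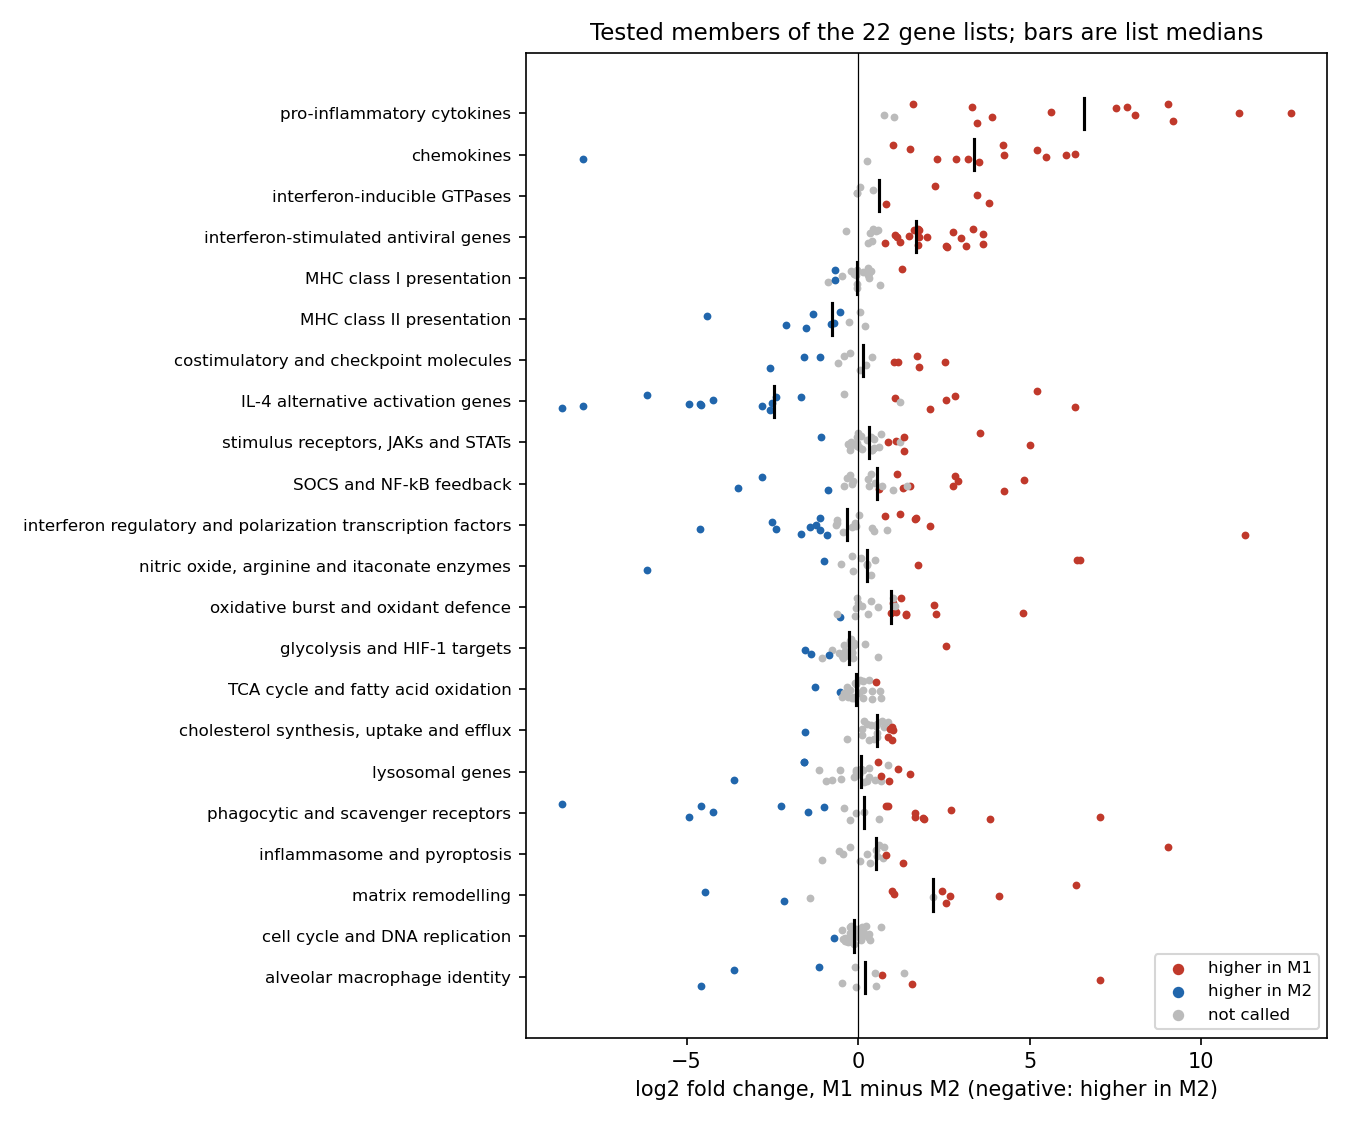
Each point is a tested member of a gene list, placed by its log2 fold change between M1 and M2 and coloured by its call, and the black bars are list medians. Cytokines and chemokines lie mostly to the right (higher in M1), IL-4 genes and MHC class II to the left, and energy metabolism and cell cycle genes close to 0.

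Genes of arginine, nitric oxide and itaconate metabolism were divided between the states. Of 13 tested members, Nos2, Gch1 and Acod1 were higher in M1, and Arg1 and Slc7a2 in M2. The call of Gch1, which makes the cofactor of nitric oxide synthase, was lost in 4 other settings, among them without M1 replicate 2 and without M2 replicate 3. Slc7a2, the arginine transporter, was at 56.9, 47.1 and 39.1 CPM in M2, 22.96, 22.9 and 25.9 in M1 and 5.40 to 6.02 in M0, so both states had raised it. Ass1, Asl, Odc1, Srm and Sms were not called. In the oxidative list, 9 of 21 members were higher in M1. Sod2, the mitochondrial superoxide dismutase, was at 517, 523 and 523 CPM in M1 and 115, 117 and 96.4 in M2. Cytosolic Sod1 was below M0 in both states, at 2423 to 2726 CPM in M1 and 2358 to 3055 in M2 against 3734 to 5117 in M0, and was not called between them. Prdx1, Prdx5, Txnrd1, Srxn1 and Nqo1, which take part in oxidant defence, were higher in M1 by 1.00 to 4.81. Cyba alone was higher in M2, and its call was lost in 18 other settings.

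Energy metabolism was read from 2 lists. Of 23 genes of glycolysis and HIF-1, 1 (4.35%) was higher in M1 and 3 (13.0%) in M2, against 10.6% and 5.47% of all genes, with a median of -0.26. The number higher in M2 was 5 without M2 replicate 2 and 6 by DESeq2. Pfkfb3, the enzyme that makes the activator of phosphofructokinase, was at 6.53, 6.29 and 6.22 CPM in M1 and 0.395 to 1.57 in M2. Bnip3, a mitophagy receptor, was lower in M1, at 315, 273 and 271 CPM against 768, 1197 and 568. Gapdh, Ldha, Pkm and Eno1 were not called. Among 24 genes of the tricarboxylic acid cycle and fatty acid oxidation, 1 (4.17%) was higher in M1 and 2 (8.33%) in M2, with a median of -0.07. Acadm, a medium-chain acyl-CoA dehydrogenase, was at 177, 215 and 157 CPM in M2 and 91.8, 71.8 and 67.6 in M1. The calls of Mdh2 and Fh1 were lost in 13 and 7 other settings.

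Sterol genes, which supply membrane cholesterol, rose from M0 to M1 in 14 of 22 tested members and fell in 1. Over all genes tested, M1 was called higher than M0 in 9.7% and lower in 4.35%. From M0 to M2, 3 members rose and 1 fell, against 2% and 2.13% of all genes. Between M1 and M2, 15 were not called. In that comparison 6 (27.3%) were higher in M1, or 1 at a log2 threshold of 1, and 1, the cholesterol exporter Abcg1, was lower. The Abcg1 call was lost in 4 other settings, among them without M1 replicate 2 and without M1 replicate 3. Msmo1, a sterol oxidase, was at 227, 201 and 221 CPM in M1, 107, 125 and 98.9 in M2 and 89.95 to 111 in M0, and Srebf2, the transcription factor of the pathway, at 104, 128 and 145, 60.4 to 69.9 and 48.2 to 52.8. Lysosomal genes, all 27 tested, gave 5 (18.5%) higher in M1 and 3 (11.1%) in M2, against 10.6% and 5.47% of all genes. The first number ran from 2 to 7 over the settings tried and moved by over 1.5 times when any M1 library, M2 replicate 2 or M2 replicate 3 was left out, and the second ran from 2 to 5. The protease genes Ctsd, Ctsl and Ctsc were higher in M1, by 1.51, 1.17 and 0.91, and the hydrolase gene Man2b1 in M2, by 1.59. Atp6v0d2, a subunit of the vacuolar proton pump, was at 2.25, 2.50 and 1.82 CPM in M2 and 0 to 0.389 in M1.

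Surface receptors for uptake were divided, with 9 of 21 tested members higher in M1 and 7 in M2. The lectin receptor genes Clec4n, Clec4e and Clec4d, which sense fungal and mycobacterial ligands, were higher in M1. Clec4e was at 257, 205 and 218 CPM in M1, 35.0, 40.9 and 28.4 in M2 and 65.7 to 92.7 in M0. Marco, a scavenger receptor, was at 1.46 to 2.82 CPM in M1 and had 1 count in M2. The activating Fc receptor genes Fcgr1 and Fcgr4 were higher in M1, Fcgr3 was higher in M2, and the inhibitory Fcgr2b was raised from M0 in both states to 158 to 192 CPM in M1 and 169 to 192 in M2. Of the macrophage markers, Lyz2, the lysozyme gene, was at 1522 to 1789 CPM in M1 and 1416 to 2105 in M0 but 322 to 438 in M2 (log2 difference between the states 2.19, adjusted p = 1.11e-06).

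Of 15 inflammasome genes 3 were higher in M1, namely Il1b, Casp4 and Ninj1, and none in M2. Casp4, the caspase that senses LPS, overlapped between the states (7.87 to 15.99 CPM against 3.71 to 8.03), and the calls of Casp4 and Ninj1 were lost in 4 and 16 other settings. Nlrp3, Casp1, Gsdmd and Pycard were not called, although Pycard was without M2 replicate 3. In the matrix list, 7 of 11 tested members were higher in M1 and 2 in M2. Mmp9, gelatinase B, was at 36.1, 53.7 and 62.8 CPM in M1 and 4.61 to 11.6 in M2, and Thbs1, thrombospondin-1, at 4.24 to 7.22 and 0 to 0.0716. Mmp12, the macrophage elastase, was at 11.1, 16.6 and 9.56 CPM in M2, 0.0972 to 0.946 in M1 and 1.05 to 1.69 in M0. Spp1, which encodes osteopontin, was at 7097 to 8220 CPM in M1, 953 to 2107 in M2 and 4358 to 5386 in M0.

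Cell cycle genes were nearly absent from the calls. All 30 were tested, and 1 (3.33%), the cyclin gene Ccnd2, was higher in M2, at 39.0 to 50.02 CPM against 25.7 to 29.9 in M1 and 67.6 to 85.5 in M0. The list median was -0.13, and Mki67, Cdk1 and Pcna lay within 0.25 of equality. Of the 22 alveolar macrophage identity genes 12 were tested, 3 were higher in M1, or 5 without M2 replicate 2, and 3 in M2. Fabp5, a fatty acid binding protein, was at 122, 136 and 155 CPM in M1, 74.8 to 97.9 in M2 and 50.8 to 58.1 in M0, and Itgax, the integrin CD11c, at 1.57 to 1.65 in M1 and 3.16 to 3.72 in M2. The Itgax call was lost when any M1 library or M2 replicate 3 was left out, and the Fabp5 call in 3 other settings. Lpl was at 390.4 to 546 CPM in M1 and 409.8 to 584 in M2.

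The genes that separated the states fell unevenly over gene types, which the comparison did not use. Among 10866 protein-coding genes tested, 10.1% were higher in M1 and 6.73% in M2. Of 1096 long noncoding genes 21.7% were higher in M1 and 5.20% in M2, and of the 1543 tested identifiers without an entry in the annotation used for names 24.2% and 3.24%. Of 2902 pseudogenes, 0.482% were higher in M1 and 2.31% in M2. The types differed in level, with a median of 14.9 CPM for protein-coding and 1.82 CPM for long noncoding genes, and the part of level in these shares was not tested. There were 373 identifiers without an entry among the genes higher in M1, and they are not named here. Of the 1096 long noncoding and 1543 unnamed genes, 206 and 360 were called higher in M1 than in M0, and 24 and 12 higher in M2 than in M0. Over all genes tested these calls numbered 1615 (9.7%) in M1 and 333 (2%) in M2.

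The promoter letters of the named genes were read from RefSeq (GRCm38.p6), whereas the counts were made on GRCm39. A window was matched by symbol for 67 of the 96 genes called between the states that head the separation or a gene list, among them Il6, Saa3, Lcn2, Socs3 and Nfkbia. The 250 bases before the start were searched on both strands for the IFN-γ activated site TTCNNNGAA, the wider-spaced form with 4 free bases that STAT6 prefers, the core GAAANNGAA of the interferon-stimulated response element, and the κB motif. A stretch around the match nearest the start is given for up to 2 genes of each motif, those farthest apart between M1 and M2. Capitals mark the match, all sequences are 5′ to 3′ on the gene's strand, and a match on the other strand reads as its reverse complement. IFN-γ activated sites stood 154 bases before the start of Socs3, chr11:117969462-117969570 (minus strand), and 99 bases before that of Ccl17, chr8:94810304-94810412 (plus strand).
Socs3: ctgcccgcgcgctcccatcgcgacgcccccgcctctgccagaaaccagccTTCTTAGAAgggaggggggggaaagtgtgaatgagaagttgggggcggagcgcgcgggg
Ccl17: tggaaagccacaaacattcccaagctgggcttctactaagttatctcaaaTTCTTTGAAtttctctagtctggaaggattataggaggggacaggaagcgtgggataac

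The STAT6 type of site was held by Lcn2, chr2:32387836-32387945 (minus strand), 156 bases before the start, and again by Ccl17, chr8:94810249-94810358 (plus strand), 154 bases before it. Both genes were higher in M1.
Lcn2: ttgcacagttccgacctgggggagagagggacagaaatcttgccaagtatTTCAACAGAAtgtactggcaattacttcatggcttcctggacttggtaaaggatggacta
Ccl17: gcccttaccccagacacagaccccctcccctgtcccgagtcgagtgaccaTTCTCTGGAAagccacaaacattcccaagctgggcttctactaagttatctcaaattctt

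The core of the interferon-stimulated response element was found 125 bases before the start of Saa3, chr7:46715743-46715851 (minus strand), and, on the other strand, 39 bases before that of Ccl3, chr11:83649379-83649467 (minus strand). The κB motif stood 44 bases before the start of Il6, chr5:30013020-30013113 (plus strand), and 29 bases before that of Nfkbia, chr12:55492648-55492726 (minus strand). In all of these genes the level was higher in M1.
Saa3 response element: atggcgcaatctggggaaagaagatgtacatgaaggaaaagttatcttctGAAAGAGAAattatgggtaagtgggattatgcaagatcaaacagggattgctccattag
Ccl3 response element: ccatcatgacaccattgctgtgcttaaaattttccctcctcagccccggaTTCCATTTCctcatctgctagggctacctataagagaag
Il6 κB: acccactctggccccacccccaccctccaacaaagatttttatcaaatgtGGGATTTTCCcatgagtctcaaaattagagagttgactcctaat
Nfkbia κB: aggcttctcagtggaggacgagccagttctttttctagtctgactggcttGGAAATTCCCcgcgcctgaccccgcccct

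The share of genes that held each motif was then counted. Of the genes with a window, 963 were higher in M1, 608 in M2 and 9196 were tested in all. The IFN-γ activated site was held by 7.37%, 5.92% and 6.87% of these, the STAT6 type site by 6.54%, 8.88% and 5.86%, the response element core by 11.1%, 9.05% and 7.75%, and the κB motif by 6.33%, 5.92% and 5.20%. Matches of different motifs shared bases in at most 14 tested genes for any pair of motifs. The shares are a description of letters in these windows, and whether a factor bound there was not measured.

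**Figure D5:**
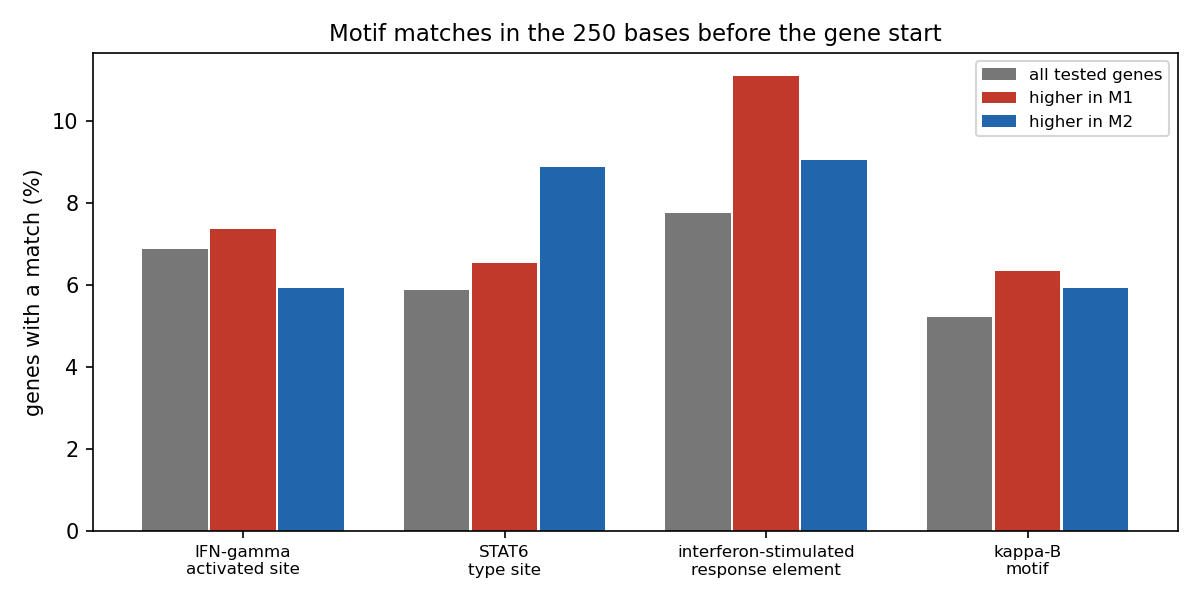
Bars give the percentage of genes with at least 1 match in the 250 bases before the start, for all tested genes with a window (grey), those higher in M1 (red) and those higher in M2 (blue). The STAT6 type site has its tallest bar for genes higher in M2 (8.88%) and the response element core for genes higher in M1 (11.1%).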

How the data were processed

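The authors aligned the reads to GRCm39 with STAR, counted them with Salmon in the nf-core/rnaseq pipeline and deposited raw counts per Ensembl gene, so whole-number counts may be rounded estimates. Groups came from the sample labels. Genes without enough counts were removed by filterByExpr by group, libraries were scaled by TMM, and 1 model over all 15 libraries was fitted with the edgeR (4.0.16) quasi-likelihood test in R 4.3.3. Genes were called at a Benjamini-Hochberg adjusted p below 0.05 and a log2 fold change beyond 0.5, and SE is the fold change divided by the square root of F. Exact permutation of 3 libraries per group gives no two-sided p under 0.1 for any gene on its own, so p-values come from the model across genes. Replicate numbers were not blocked, and same-numbered libraries deviated together between M0 and M1 only (the closing section gives the check and the blocked counts). A side of M0 was given by the calls of each state against M0. Named genes were the 6 markers of the study, the 10 genes on either side with the largest log2((CPM M1 + 1)/(CPM M2 + 1)) among called genes with a symbol, at least 5 CPM and no overlap, 3 on either side in each class, and the first 3 called genes on either side and the highest uncalled gene of each of 22 lists, with further list members where a list is described. The comparison, lists and members were chosen with earlier results of these data known. Symbols came from the reference annotation and 1543 tested identifiers had none. The procedure was tested on simulated data. DESeq2 (1.42.0) and the settings listed in the closing section were alternatives. Values of some list members are not reported here, and counts over lists include them.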

Additional observations from a re-analysis of the deposited data

How the results depend on the processing

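The main fit called 2679 genes between M1 and M2 (1768 higher in M1, 911 in M2), 2340 between M1 and M0 and 688 between M2 and M0. Between M1 and M2, DESeq2 called 2855 (1763 and 1092) and DESeq2 size factors 2669. No gene called between M1 and M2 in both the main fit and another setting changed direction. The 126 named genes include genes not called between M1 and M2. Of them, 94 kept the same status, called or not called, in all settings that tested them. Of 44 counts of list members higher in either state 12 stayed within 1.5 times in all. For the settings that moved a count further, the cause was not tested. With no filter on low counts 4397 genes were called, 2301 higher in M2, with 1138 between M2 and M0, 2152 moved by M1 only, 470 by M2 only, 58 to the same side, 1635 in neither and M0 between the states for 3028. A minimum of 10 counts in every library left 1157 higher in M1. With only the 9 libraries of M0, M1 and M2 in the model 1769 were called (1139 higher in M1), with 1509 between M1 and M0, 297 between M2 and M0, 157 for M2 only, 34 opposite and 16 on the same side. With 6 libraries of M1 and M2 there were 1377 (909 and 468). A log2 threshold of 1 gave 579 higher in M2 and 17 on the same side. Counts thinned to the smallest library gave 429 between M2 and M0, 204 for M2 only and 51 opposite. Without M0 replicate 3 and M2 replicate 2 together 5029 were called, 2770 higher in M2, with 2597 in neither and M0 between for 3875. With all promoters of the RefSeq table as background, the IFN-γ activated site was held by 8.13%, the STAT6 type site by 6.76% and the κB motif by 4.46%.

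Leaving out each library in turn gave 1767 (without M2 replicate 3) to 4270 (without M2 replicate 2) genes between M1 and M2, with 1002 to 2192 higher in M1 and 559 to 2078 higher in M2. It gave 1512 to 3133 between M1 and M0 and 316 to 1360 between M2 and M0. By class there were 41 to 116 opposite, 19 to 61 on the same side, 176 to 577 for M2 only and 446 to 1782 in neither, with M0 between the states for 1223 to 3267. The lowest count for M2 only was without M0 replicate 1, and the lowest for the same side was without M1 replicate 2. Robust quasi-likelihood fitting, chosen after seeing the data, gave 2662. Deviations from the group means of same-numbered libraries correlated at -0.298, -0.278 and -0.113 between M1 and M2 and at -0.0572, -0.539 and -0.704 between M0 and M2, so the numbers did not pair these groups. Between M0 and M1 they correlated at 0.292, 0.275 and 0.206. With the replicate block 2355 genes were called between M1 and M2 (1568 and 787), 2122 between M1 and M0 and 502 between M2 and M0, with 1277 for M1 only, all within 1.5 times, and the calls of Tyk2, Cyba and Ninj1 were lost. The deepest library, M2 replicate 3, held 68750050 counts and the shallowest, M0 replicate 3, 8459643, so an absence of counts limits a level less firmly in M0 and M1 than in M2.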
